A study of Mus musculus with 49 samples.

Results

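Annexins are proteins that bind phospholipid membranes when calcium rises. The genes followed here are Anxa1, Anxa2, Anxa3, Anxa4, Anxa5, Anxa6, Anxa7 and Anxa11, and every probe set whose platform annotation names 1 of these symbols and no other was taken. This gave 7 of the 8 genes, among 18194 genes that the array covers by that rule, with 17 probe sets of 45101: 4 for Anxa6, 3 each for Anxa2, Anxa4 and Anxa7, 2 for Anxa1 and 1 each for Anxa3 and Anxa5. The probe set listed for Anxa11, which binds calcyclin (S100a6) and the calcium sensor Pdcd6, carries several symbols, so no value is given for it. Of the 17 probe sets, 5, of 4 genes (Anxa2, Anxa4, Anxa6 and Anxa7), had a value on all 49 arrays.

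Livers of male C57BL6/N mice were measured after an intraperitoneal dose of 300 mg/kg acetaminophen (paracetamol) given in warm saline, before which the animals had been starved overnight. Animals were taken at 9 times (1 h, 6 h and 12 h, then 1 d, 2 d and 4 d, then 6 d, 8 d and 16 d), and livers without treatment were the control, with 4 arrays at 6 h and 5 in each other group. The labels do not say whether control mice were starved or given the vehicle, and the series' design text does not list the 16 d time, which comes from the labels. Nor do they say that each array is a separate mouse, so the spread behind each p-value is that of arrays and may be technical.

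A core of repeats that holds calcium and touches the membrane is common to all annexins, while the N-terminal tail differs between them and binds partners, among them proteins of the S100 family. Annexins aggregate and bend membranes, link them to the actin cortex, gather at plasma membrane wounds, and bind phosphatidylserine that dying cells expose. Acetaminophen overdose kills the hepatocytes around the central vein. The dead cells are then cleared by phagocytes and replaced by division of the survivors.

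Levels below are log2 expression values, in which 1 unit is a doubling of signal, and a difference is the log2 mean of the first group minus that of the second with the standard error (SE) of a limma fit. A probe set was called where the Benjamini-Hochberg adjusted p over all probe sets of the comparison was under 0.05. The 5 probe sets on all arrays were compared with control among 8137 probe sets. All 17 were compared with the 1 h group, itself treated, among the 45101 probe sets of the 25 arrays that hold them all (1 h, 12 h, 1 d, 2 d and 16 d). On those 25 arrays the median of all values was 4.75 and the highest 14.41. The number of arrays limits the precision.

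In 3 arrays, control replicate 3, 1 h replicate 3 and 16 d replicate 4, the values spread less (SD 2.25 to 2.26 within an array) than in the other 46 (SD 2.40 to 2.48). These 3 arrays gave the lowest value of their group for Anxa4 (1421223_a_at) and for both Anxa7 probe sets measured on all arrays. They were also lowest of their group for Anxa6 (1415818_at). The labelled tissue was checked against hepatocyte markers. The albumin gene Alb averaged 14.30 at 2 d and 14.19 at 1 h, and Apoa1, Ttr and Cps1 also averaged above 13 in both groups. Cyp2e1, the cytochrome that activates acetaminophen in central hepatocytes, fell by 1.01 at 2 d against 1 h.

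Promoter windows were read for the members that RefSeq's table for GRCm38.p6 lists, which were 5 of the 7 measured genes. Anxa3 and Anxa6 have no entry. The windows hold the 250 bases before a start that the table lists, and for Anxa4 and Anxa7 it lists another start inside the gene as well. The windows before the gene's outer start are shown for 3 genes, 5′ to 3′ on the gene's strand. Among the listed genes, by the probe set of highest mean, levels of Anxa2 and Anxa1 rose most and Anxa7 ended below control. Capitals mark TGANTCA, the AP-1 motif, and TATAAA, the TATA box, each searched on both strands.
Anxa2 promoter: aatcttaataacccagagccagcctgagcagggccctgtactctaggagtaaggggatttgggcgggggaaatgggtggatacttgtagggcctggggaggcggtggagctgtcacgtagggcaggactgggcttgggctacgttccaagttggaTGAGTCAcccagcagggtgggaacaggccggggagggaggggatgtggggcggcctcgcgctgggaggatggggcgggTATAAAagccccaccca
Anxa1 promoter: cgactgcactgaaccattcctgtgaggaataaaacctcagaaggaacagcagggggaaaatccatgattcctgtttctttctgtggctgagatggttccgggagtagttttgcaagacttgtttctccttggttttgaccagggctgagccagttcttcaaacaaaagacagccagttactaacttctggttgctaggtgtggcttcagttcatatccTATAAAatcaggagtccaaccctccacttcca
Anxa7 promoter: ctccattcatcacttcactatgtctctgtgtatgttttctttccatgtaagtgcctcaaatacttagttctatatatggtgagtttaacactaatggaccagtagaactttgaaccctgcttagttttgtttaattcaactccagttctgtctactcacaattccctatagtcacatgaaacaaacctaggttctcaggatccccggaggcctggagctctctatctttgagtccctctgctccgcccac

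The Anxa2 window lies at chr9:69453433-69453682 on the plus strand and holds TGAGTCA, which begins 95 bases before the start, and TATAAA, which begins 17 bases before it. It also holds the GC box GGGCGG at 190, 48 and 24 bases before the start, and none of these overlaps the capitals. The Anxa1 window lies at chr19:20390672-20390921 on the minus strand and holds TATAAA 32 bases before the start but no TGANTCA. The Anxa7 window lies at chr14:20480134-20480383 on the minus strand and holds neither, but it has a GC box, read on the other strand, 8 bases before the start. Among 32851 promoter windows of the table, TGANTCA was found in 6.75%, TATAAA in 12.4% and GGGCGG in 32.7%. The windows of Anxa4 and Anxa5 and the other Anxa7 window hold neither TGANTCA nor TATAAA. A match is a run of letters and not a measured site.

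Anxa2 pairs with S100a10 and holds plasminogen and its activator at the cell surface. By the probe set of highest mean for each gene, it changed most of the annexins. Its probe set 1419091_a_at rose from 12 h on and was highest at 2 d, when it stood 33.9-fold above control (log2 difference 5.08 ± 0.30, adjusted p = 3.66e-17). The arrays read 6.58, 6.54, 6.57, 6.67 and 6.30 in control livers, and 6.29, 6.61, 6.13, 6.32 and 6.98 at 1 h. At 6 h they read 6.08, 6.95, 7.02 and 6.96, at 12 h 7.54, 7.89, 9.08, 8.08 and 7.52, and at 1 d 10.27, 10.25, 10.80, 11.70 and 9.32. Control, 1 h and 6 h arrays thus overlapped, while every array of 12 h and of 1 d lay above every control array. The 2 d arrays read 11.08, 11.39, 11.51, 12.00 and 12.10, and the 4 d arrays 9.68, 8.80, 8.12, 8.34 and 8.55. At 6 d the values were 7.61, 7.79, 7.40, 7.76 and 7.20, at 8 d 7.55, 7.25, 8.28, 7.39 and 7.30, and at 16 d 7.30, 7.46, 7.75, 6.88 and 7.64. All 7 groups from 12 h to 16 d lay wholly above control, and neighbours in the order of the group means overlapped, so the last groups cannot be ranked among themselves.

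Against control, the difference of Anxa2 was -0.07 ± 0.30 at 1 h and 0.22 ± 0.32 at 6 h, neither called. It was 1.49 ± 0.30 at 12 h (adjusted p = 0.000202), 3.93 ± 0.30 at 1 d (adjusted p = 1.32e-13) and 2.17 ± 0.30 at 4 d (adjusted p = 5.90e-07). The rise thus continued over 2 d and had come down by 4 d without reaching the control range. At 6 d and 8 d it was 1.02 ± 0.30 each (adjusted p = 0.0232 at 6 d and 0.0248 at 8 d), and at 16 d 0.87 ± 0.30, which was not called (adjusted p = 0.0771). The 6 d call was lost without 6 d replicate 1, 2 or 4 or control replicate 5 (adjusted p 0.0509 to 0.0635). The 8 d call was lost without 8 d replicate 3, when the difference was 0.84 (adjusted p = 0.113), or without control replicate 5 (adjusted p = 0.0609). Without 16 d replicate 4 the 16 d difference was 1.00 and was called (adjusted p = 0.0458), but without all 3 narrow arrays it was 1.01 and not called (adjusted p = 0.0630).

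Between neighbouring times Anxa2 rose by 1.27 ± 0.32 at 12 h against 6 h, by 2.45 ± 0.30 at 1 d against 12 h and by 1.15 ± 0.30 at 2 d against 1 d. It then fell by 2.92 ± 0.30 at 4 d against 2 d and by 1.15 ± 0.30 at 6 d against 4 d (adjusted p = 0.0234). The last step was not called without 4 d replicate 1, when it was -0.90 (adjusted p = 0.138), or without 4 d replicate 2 or 6 d replicate 3 or 5 (adjusted p 0.0570 to 0.0825). The steps of 12 h over 6 h and of 2 d over 1 d were not called when each pair of groups was fitted alone (adjusted p 0.0616 and 0.0824). The differences of 8 d from 6 d and of 16 d from 8 d were 0.00 and -0.15, not called.

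**Figure D1:**
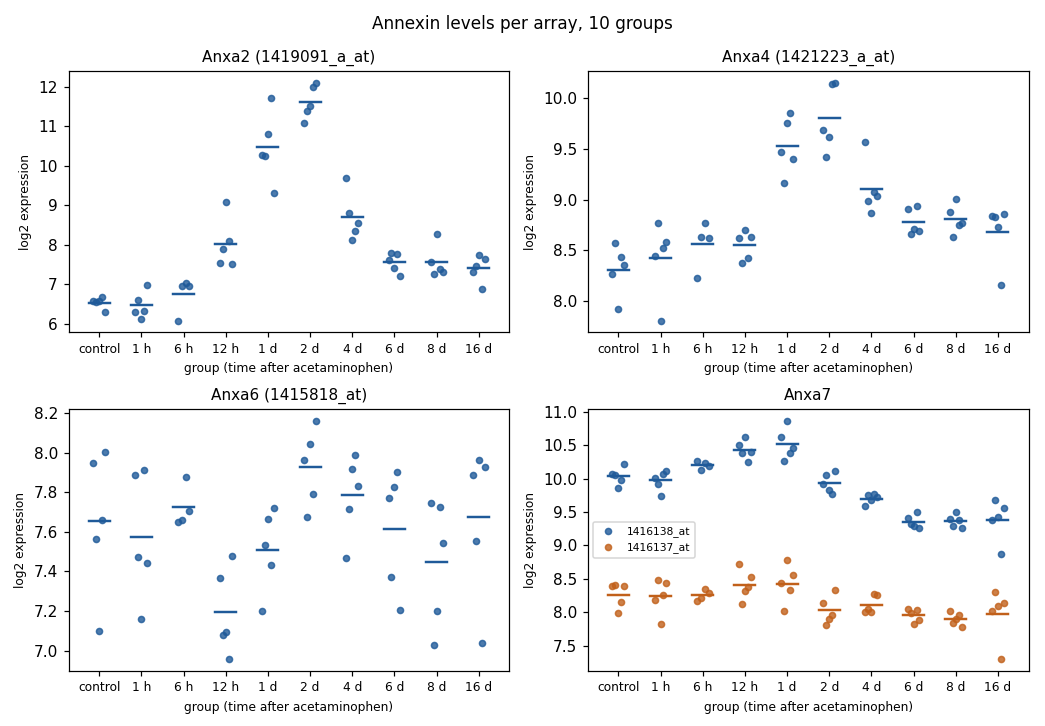
Log2 expression (vertical axes, which do not start at 0) of Anxa2, Anxa4, Anxa6 and 2 Anxa7 probe sets on each array (points) in the 10 groups along the horizontal axis, with the group mean as a bar. Anxa2 climbs from 12 h to a mean of 11.61 at 2 d over 6.53 in control, Anxa4 has its highest mean at the same time, and 1416138_at of Anxa7 is highest at 1 d and lowest from 6 d on.

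Anxa4, an annexin of epithelial cells that gathers at membranes and aggregates vesicles, rose less. Its arrays (1421223_a_at) read 9.69, 9.42, 9.61, 10.14 and 10.16 at 2 d, against 8.26, 8.57, 7.91, 8.43 and 8.35 in control livers. At 1 d they read 9.47, 9.16, 9.76, 9.86 and 9.40, and at 4 d 9.57, 8.98, 8.86, 9.08 and 9.04. The groups of 1 d, 2 d, 4 d, 6 d and 8 d lay wholly above control, and those of 1 h, 6 h, 12 h and 16 d overlapped it. The difference from control was 1.22 ± 0.16 at 1 d (adjusted p = 7.49e-08), 1.50 ± 0.16 at 2 d (2.83-fold, adjusted p = 4.09e-10) and 0.80 ± 0.16 at 4 d (adjusted p = 0.000283). It was 0.12 at 1 h, 0.26 at 6 h and 0.24 at 12 h, and later 0.48 at 6 d and 0.37 at 16 d, none of them called. The call at 8 d (0.50 ± 0.16, adjusted p = 0.0458) was lost without the 3 narrow arrays (0.40, adjusted p = 0.0693) and without any 1 of 8 d replicates 1, 3, 4 or 5 or control replicates 1, 3, 4 or 5. The step of 1 d over 12 h was a rise of 0.98 ± 0.16, and that of 4 d from 2 d a fall of 0.70 ± 0.16 (adjusted p = 0.00121).

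Anxa6, whose core is duplicated and which works in endosomes and in plasma membrane repair, overlapped the control arrays at each time. Its probe set 1415818_at read 7.37, 7.08, 7.09, 6.96 and 7.48 at 12 h, against 7.95, 7.56, 7.10, 7.66 and 8.00 in control livers. The 12 h mean was the lowest of the 10 groups, and 12 h and control arrays overlapped through the narrow control replicate 3. The difference at 12 h was -0.46 ± 0.17, just past the threshold (adjusted p = 0.0483), and -0.60 without the 3 narrow arrays (adjusted p = 0.00270). The call was lost without any 1 of 7 arrays (adjusted p 0.0570 to 0.144) and when 12 h and control were fitted alone (adjusted p = 0.119). At the other times its differences lay between -0.21 at 8 d and 0.27 at 2 d and were not called.

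Anxa7, named synexin for its part in the fusion of secretory granules, was called below control late in the course by 1 of its probe sets. The means of Anxa2 and Anxa4 also fell after 2 d but stayed above control. Its probe set 1416138_at read 10.51, 10.38, 10.62, 10.25 and 10.40 at 12 h and 10.62, 10.26, 10.87, 10.39 and 10.46 at 1 d, against 10.07, 10.06, 9.86, 9.98 and 10.22 in control livers. Every array of 12 h and 1 d lay above every control array. At 2 d it read 9.92, 10.06, 9.83, 9.76 and 10.11, at 4 d 9.59, 9.75, 9.68, 9.77 and 9.72, and at 6 d 9.42, 9.32, 9.29, 9.51 and 9.26. It read 9.39, 9.29, 9.50, 9.38 and 9.26 at 8 d and 9.39, 9.68, 9.43, 8.87 and 9.56 at 16 d. The 2 d arrays overlapped control, while all arrays of 4 d, 6 d, 8 d and 16 d lay below it.

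The difference of Anxa7 (1416138_at) from control was 0.39 ± 0.11 at 12 h (adjusted p = 0.00521) and 0.48 ± 0.11 at 1 d (adjusted p = 0.000438). It was -0.10 ± 0.11 at 2 d, not called, and -0.34 ± 0.11 at 4 d (adjusted p = 0.0238). The fall was 0.624-fold of control at 6 d (-0.68 ± 0.11, adjusted p = 1.64e-05), and the differences were -0.67 ± 0.11 at 8 d (adjusted p = 1.72e-05) and -0.65 ± 0.11 at 16 d (adjusted p = 3.71e-05). Unlike Anxa2, whose difference at 16 d was positive and not called, this probe set ended below the control range. The 4 d call was lost without 4 d replicate 1 or control replicate 5 (adjusted p 0.0650 and 0.0760), and without the narrow arrays the 16 d difference was -0.57 (adjusted p = 8.60e-05). The second probe set on all arrays, 1416137_at, lay at 0.15 and 0.16 at 12 h and 1 d and at -0.15 to -0.36 from 2 d to 16 d, none of these called. Without the narrow arrays it was called lower at 2 d (-0.30), 6 d (-0.38) and 8 d (-0.43). From 1 d to 2 d both fell, by 0.58 ± 0.11 (1416138_at, adjusted p = 8.09e-05) and by 0.40 ± 0.14 (1416137_at, adjusted p = 0.0480). The second of these calls was lost without any 1 of 8 arrays (1 d replicates 1, 3, 4 and 5 and 2 d replicates 1 to 4, adjusted p 0.0513 to 0.170).

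**Figure D2:**
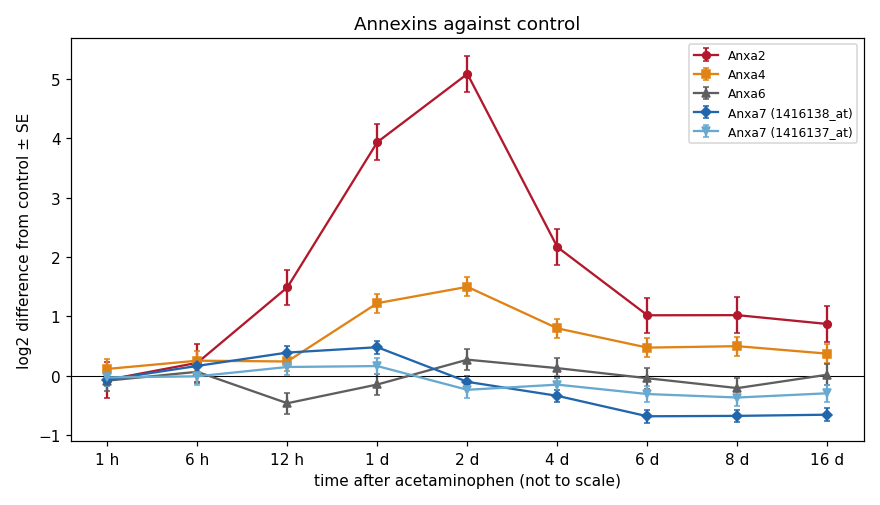
Log2 difference from control (vertical axis, ± SE of the fit) of 5 annexin probe sets at the 9 times (horizontal axis, not to scale). The line of Anxa2 peaks at 5.08 and that of Anxa4 at 1.50, both at 2 d, while 1416138_at of Anxa7 runs from 0.48 at 1 d to -0.68 at 6 d.

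Counted over the 5 probe sets, none was called at 1 h or 6 h by limma, and none had an unadjusted p under 0.05 there. Over all probe sets 0.578% were called at 1 h (0.295% higher, 0.283% lower) and 5.42% at 6 h (3.61% higher, 1.81% lower). At 12 h 3 members were called (2 higher, 1 lower) beside 22.8% of all (11.5% higher, 11.3% lower). At 1 d 3 were called, all higher, beside 28.8% (16% higher, 12.8% lower), and at 2 d 2, both higher, beside 31.8% (19.5% higher, 12.3% lower). So Anxa2 and Anxa4 rose at times when many other probe sets were called higher as well. At 4 d 3 were called (2 higher, 1 lower) beside 15.2% (9.07% higher, 6.16% lower), and at 6 d 2 (1 higher, 1 lower) beside 7.47% (5.06% higher, 2.41% lower). At 8 d 3 were called (2 higher, 1 lower) beside 7.19% (4.5% higher, 2.69% lower), and at 16 d 1, lower, beside 5.89% (2.89% higher, 3% lower).

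The scaling moved several of these splits. When each array was centred on its ribosomal protein genes, the median of all probe sets shifted by -0.24 at 2 d against control. The split at 2 d was then 2 higher and 2 lower in place of 2 higher and 0 lower, both lower ones being Anxa7 (-0.34 and -0.47). With this centring 55.4% of all probe sets were called at 2 d, in place of 31.8%. Centring on the array median also gave 2 higher and 2 lower at 2 d, with 53.7% of all called, and quantile normalization 2 higher and 1 lower. Ribosomal centring gave 2 higher and 1 lower at 1 d and at 6 d and 1 higher and 1 lower at 16 d, and the 1 d rise of Anxa7 was not called with it (0.21, adjusted p = 0.0756). Median centring and quantile normalization each gave 1 higher and 2 lower at 6 d and 2 higher and 2 lower at 8 d.

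Between neighbouring times, none of the 5 was called by limma at 6 h against 1 h, beside 3.93% of all (3.07% higher, 0.86% lower), with 1 at an unadjusted p under 0.05. None was called at 8 d against 6 d (0% of all) or at 16 d against 8 d (0.0123% of all), with 0 unadjusted. At 12 h against 6 h 1 was called, higher, beside 8.34% (4.02% higher, 4.33% lower), and at 1 d against 12 h 2, both higher, beside 4.82% (3.07% higher, 1.75% lower). At 2 d against 1 d 3 were called (1 higher, 2 lower) beside 13% (9.44% higher, 3.53% lower). The later steps were falls: at 4 d against 2 d 2 were lower beside 17.9% (5.31% higher, 12.6% lower), and at 6 d against 4 d 1 was lower beside 2.18% (0.676% higher, 1.5% lower). With ribosomal centring the splits were 1 higher and 1 lower at 12 h against 6 h, as with quantile normalization, 1 higher and 1 lower at 2 d against 1 d, and 1 higher and 2 lower at 4 d against 2 d.

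Anxa1, Anxa3 and Anxa5 have no value on the control arrays used here and were followed against 1 h. Anxa1, which glucocorticoids induce and whose released form signals through the formyl peptide receptor Fpr2, was high at 2 d. Its probe set 1448213_at read 8.81, 9.49, 8.77, 8.82 and 9.45 at 2 d, against 5.39, 5.57, 5.47, 5.74 and 5.88 at 1 h. At 12 h it read 6.26, 7.04, 7.76, 8.04 and 6.94, at 1 d 7.43, 7.33, 7.03, 7.72 and 7.44, and at 16 d 5.95, 6.12, 6.12, 5.63 and 6.40. All arrays of 12 h, 1 d and 2 d lay above all of 1 h, and 16 d overlapped 1 h. The difference was 1.60 ± 0.24 at 12 h (adjusted p = 6.46e-05), 1.78 ± 0.24 at 1 d (adjusted p = 1.06e-05), 3.46 ± 0.24 at 2 d (11-fold, adjusted p = 5.09e-10) and 0.44 ± 0.24 at 16 d, not called. For this probe set the 1 d and 12 h arrays overlapped (difference 0.18, not called), and 2 d stood 1.68 ± 0.24 above 1 d (adjusted p = 6.49e-05).

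Anxa3, abundant in human neutrophils, was also high at 2 d. It read 8.49, 8.74, 9.10, 10.39 and 10.37 at 2 d, against 5.41, 5.30, 5.76, 5.76 and 5.55 at 1 h. At 12 h it read 5.77, 5.61, 6.60, 6.44 and 6.02, at 1 d 6.77, 7.20, 7.70, 8.27 and 6.52, and at 16 d 5.40, 5.61, 5.82, 5.34 and 5.91. The 1 d and 2 d groups lay wholly above 1 h, the 12 h group overlapped it, and 2 d replicates 4 and 5 stood more than 1 unit above the other three. The difference was 0.53 ± 0.33 at 12 h, not called, 1.73 ± 0.33 at 1 d (adjusted p = 0.000567), 3.86 ± 0.33 at 2 d (14.6-fold, adjusted p = 1.30e-08) and 0.06 at 16 d, not called. From 1 d to 2 d it rose by 2.13 ± 0.33 (adjusted p = 0.000190).

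Anxa5, which coats exposed phosphatidylserine and is the protein used to stain dying cells, had its highest levels at 2 d as well. Its arrays read 11.24, 11.49, 11.54, 11.65 and 11.97 at 2 d, against 9.91, 9.73, 9.33, 9.68 and 9.80 at 1 h. At 12 h they read 9.75, 10.23, 10.08, 10.05 and 9.47, at 1 d 10.70, 10.68, 10.95, 11.90 and 10.34, and at 16 d 9.90, 10.36, 9.96, 9.43 and 9.87. The 1 d and 2 d groups lay wholly above 1 h, and 12 h and 16 d overlapped it. The difference was 0.23 ± 0.22 at 12 h, not called, 1.23 ± 0.22 at 1 d (adjusted p = 0.000258), 1.89 ± 0.22 at 2 d (3.70-fold, adjusted p = 8.55e-07) and 0.21 at 16 d, not called.

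**Figure D3:**
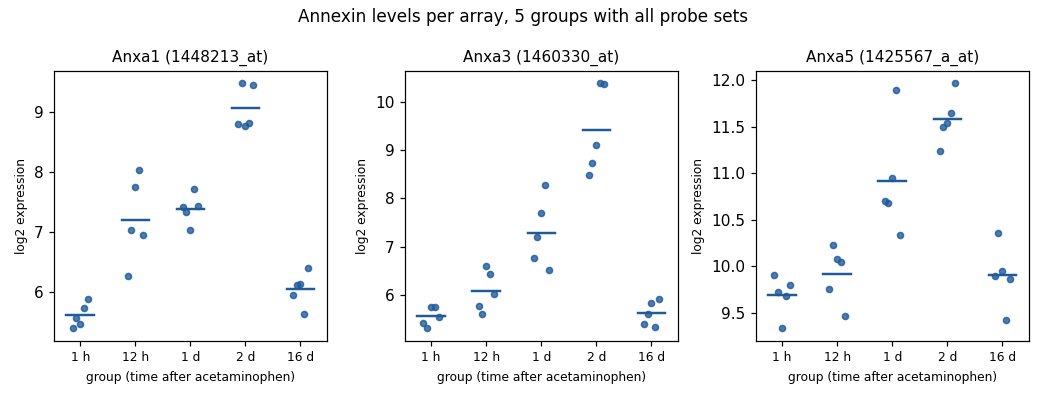
Log2 expression (vertical axes, which do not start at 0) of Anxa1, Anxa3 and Anxa5 on each array (points) in the 5 groups that hold all probe sets (horizontal axis), with the group mean as a bar. Each gene has its highest mean at 2 d (9.07, 9.42 and 11.58 in that order of genes), and the 16 d arrays overlap those of 1 h.

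Against 1 h, 5 of the 17 probe sets were called at 12 h, all higher, beside 13.7% of all (6.3% higher, 7.4% lower). At 1 d 9 were called, all higher, beside 17.9% (8.8% higher, 9.15% lower), and at 2 d 8, all higher, beside 23% (10.9% higher, 12.1% lower). At 16 d the 1 called was lower, beside 1.7% of all (0.902% higher, 0.796% lower): Anxa7 (1416138_at), at -0.59 ± 0.13 (adjusted p = 0.0151), a call lost without 1 h replicate 5 (adjusted p = 0.0561). The 8 at 2 d were 1448213_at of Anxa1, 1419091_a_at and 1437692_x_at of Anxa2, the probe sets of Anxa3 and Anxa5, and all 3 of Anxa4. With ribosomal centring the median of all probe sets shifted by -0.25 at 2 d against 1 h, and 63.1% of them were called. The split of the members became 8 higher and 6 lower in place of 8 higher and 0 lower. At 12 h it was 3 higher and 3 lower, and at 1 d 8 higher and 1 lower. After quantile normalization the calls were 8 higher with 1 lower at 2 d, and 4 higher with 1 lower at 12 h. At 16 d against 2 d, 9 were called, all lower, beside 16.3% of all (7.24% higher, 9.04% lower), and with ribosomal centring 3 were higher and 9 lower. They included the same 8 and 1416138_at of Anxa7, and the largest falls were 4.21 (Anxa2), 3.80 (Anxa3) and 3.02 (Anxa1). At 1 d against 12 h 5 were called, all higher, beside 1.06% of all (0.603% higher, 0.452% lower), and at 2 d against 1 d 5, of which 3 higher and 2 lower, beside 5.57% (3.98% higher, 1.59% lower). The 5 higher at 1 d were Anxa2 (1419091_a_at), all 3 probe sets of Anxa4 and Anxa5, and the 3 higher at 2 d were Anxa1, Anxa2 and Anxa3. Whether annexins differed in when they stepped up was not tested. The Anxa5 step of 2 d over 1 d was not called, but without 1 d replicate 4 it was 0.91 and called (adjusted p = 0.00235), as it was with array weights (adjusted p = 0.0280) and with ribosomal centring (adjusted p = 0.0276). The Anxa3 step of 1 d over 12 h was 1.20 and not called, and without 1 d replicate 5 it was 1.39 and called (adjusted p = 0.0486). The Anxa2 step of 2 d over 1 d among all 45101 probe sets (adjusted p = 0.0390) was lost without any 1 of 1 d replicates 1, 2 and 5 or 2 d replicates 3, 4 and 5, and that of Anxa5 at 1 d over 12 h (adjusted p = 0.0229) without 12 h replicate 1 or 5 or that same 1 d replicate 4. For Anxa4 the 1 d over 12 h call of 1424176_a_at was lost without any 1 of 6 arrays (12 h replicates 1, 2, 4 and 5 and 1 d replicates 3 and 4, adjusted p 0.0588 to 0.0832) and with median centring (adjusted p = 0.0554). That of 1457658_x_at was lost when both groups were fitted alone (adjusted p = 0.0756).

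Probe sets of 1 gene were compared by the difference of their log2 values on each array, at 2 d against 1 h, with a 2-sided exact permutation test over arrays and Benjamini-Hochberg adjustment over 16 pairs. The smallest p that 5 against 5 arrays allow is 0.00794. Of the pairs in which both probe sets lay above the median of all values, 4.75, in both groups, the Anxa2 pair differed: 1419091_a_at rose 4.15 more than 1437692_x_at (exact permutation p = 0.00794, adjusted 0.0317).

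The remaining probe sets of Anxa1 and Anxa2 were too low to show whether they followed. For Anxa1, 1444016_at lay between 2.91 and 3.32 at 2 d and between 3.16 and 3.65 at 1 h, and its group means lay under the 25th percentile of all values, 3.55. For Anxa2, 1437691_at lay between 2.47 and 3.06 at 2 d and between 2.49 and 2.81 at 1 h, and its group means lay under the 10th percentile, 2.88. The table gives no detection calls, so neither is shown to be above background. The differences of the 3 pairs that hold them (3.66, 5.10 and 0.95) are thus set by the rise of the other probe set.

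The second Anxa2 probe set, 1437692_x_at, still rose, by 1.00 ± 0.21 at 2 d against 1 h (adjusted p = 0.00134). Its array values were 6.04, 6.45, 6.84, 5.74 and 5.64 at 2 d, against 5.50, 5.09, 5.04, 5.15 and 4.94 at 1 h, with no overlap. Its name ends in _x_at, which in Affymetrix naming marks probes that may bind other transcripts. The 3 Anxa4 probe sets rose by 1.38 ± 0.18 (1421223_a_at), 1.51 ± 0.22 (1424176_a_at) and 1.27 ± 0.14 (1457658_x_at), and no Anxa4 pair differed past the threshold. Anxa6 had 2 probe sets above the median of all values, at 0.35 ± 0.17 and 0.48 (1429246_a_at), and 2 under it, at -0.06 and -0.24, and none was called at any of the 4 times against 1 h.

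Of the 3 Anxa7 probe sets, 1438764_at and 1416138_at were called higher at 12 h against 1 h, by 0.72 ± 0.20 (adjusted p = 0.0167) and 0.46 ± 0.13 (adjusted p = 0.0203). The first read 5.77, 5.86, 6.13, 6.56 and 6.26 at 12 h, against 5.20, 5.31, 5.38, 5.45 and 5.65 at 1 h, with no overlap. The first call was lost without 12 h replicate 4 (adjusted p = 0.0538), and the second without 12 h replicate 3 or 1 h replicate 3 (adjusted p 0.0599 and 0.0557) and with ribosomal centring (0.25, adjusted p = 0.0904). Both also fell at 2 d against 1 d, by 0.77 ± 0.20 (1438764_at, adjusted p = 0.0200) and 0.58 ± 0.13 (1416138_at, adjusted p = 0.00681), the call of 1438764_at being lost without 1 d replicate 1 or 4 or 2 d replicate 3 (adjusted p 0.0611 to 0.0844). No Anxa6 or Anxa7 pair differed at 2 d against 1 h. The Anxa2 pair above the median also differed at 12 h (1.14, adjusted exact permutation p = 0.0423) and at 1 d (3.01, adjusted 0.0317), and not at 16 d (0.78, adjusted 0.0635). A p that misses the threshold does not show that 2 probe sets moved alike.

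**Figure D4:**
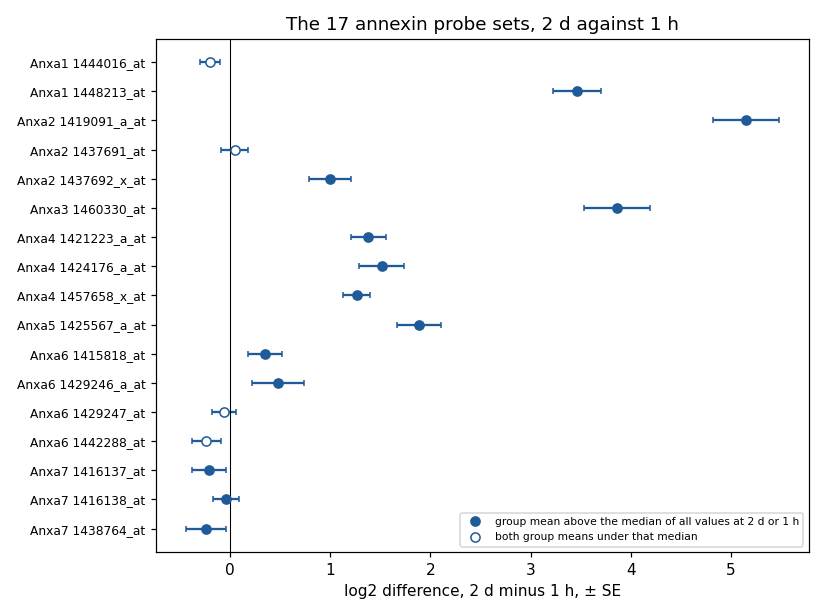
Log2 difference of 2 d minus 1 h (horizontal axis, ± SE of the fit) for the 17 annexin probe sets (vertical axis). Filled points have a 2 d or 1 h group mean above the median of all values on the complete arrays, and open points do not. The 3 Anxa4 points lie close together between 1.27 and 1.51, while the Anxa2 points spread from 0.05 to 5.15.

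With the probe set of highest mean standing for its gene, the change at 2 d against 1 h was 5.15 for Anxa2, 3.86 for Anxa3, 3.46 for Anxa1, 1.89 for Anxa5, 1.38 for Anxa4, 0.35 for Anxa6 and -0.04 for Anxa7. Neighbours in this order were compared by the difference of their log2 values per array, with 6 exact permutation tests, 2-sided. Anxa2 exceeded Anxa3 by 1.29 (adjusted exact permutation p = 0.0159), and Anxa3 and Anxa1 were not told apart (0.40, adjusted exact permutation p = 0.397). Anxa1 exceeded Anxa5 by 1.57 (adjusted exact permutation p = 0.0159), Anxa5 exceeded Anxa4 by 0.51 (adjusted exact permutation p = 0.0238) and Anxa4 exceeded Anxa6 by 1.03 (adjusted exact permutation p = 0.0159). Anxa6 and Anxa7 differed by 0.39, which did not pass (adjusted exact permutation p = 0.0571). Values of different probe sets share no scale of level, so the order is one of changes and says nothing of which annexin was most abundant. These tests compare single probe sets, and the Anxa2 probe sets changed unequally. By 1437692_x_at Anxa2 rose by 1.00, less than the 1.38 of Anxa4. The order thus holds for the probe sets used and not for the genes as such.

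Genes linked to annexins as family members, partners or parts of related processes were followed in the same fits. Each gene was read by its probe set of highest mean. The lists were chosen with earlier results of these data known, so their shares beside those of all genes are a description only. At 2 d against 1 h, 20 of the 40 with a single-symbol probe set were higher and 2 lower, beside 14.3% of 18194 genes higher and 12.5% lower. Against control at 2 d, 9 of 21 were higher and 0 lower, beside 19.8% of 5976 genes higher and 12.6% lower. Centring on ribosomal protein genes gave 17 higher and 9 lower against 1 h, with 63.1% of all probe sets called. Against control, that centring and centring on the array median each gave 7 higher and 4 lower, with 55.4% and 53.7% of all probe sets called. Quantile normalization gave 7 higher and 2 lower.

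All 3 measured partners of the S100 family rose at 2 d against 1 h, and their median difference was 3.40, against -0.08 over all genes. S100a10, the light chain of the Anxa2 complex, averaged 11.46 ± 0.31 at 2 d and 10.44 ± 0.23 at 1 h (SD, n = 5 each), a difference of 1.02 ± 0.19 (adjusted p = 0.000331). It was highest at 12 h, at 11.93 ± 0.09, when Anxa2 had risen by 1.56. S100a6, a partner of Anxa2 and Anxa11, averaged 10.76 ± 0.70 at 2 d and 3.80 ± 0.47 at 1 h, a difference of 6.96 ± 0.45 (adjusted p = 2.72e-10). S100a4 rose by 3.40 ± 0.30, to 6.80 at 2 d against 3.40 at 1 h. Its 1 h level lay under the 25th percentile of all values and that of S100a6 under the median, with no detection call to show either above background, so the sizes of these 2 differences, and the list's median, which is S100a4's own value, depend on that low level. S100a11, the partner of Anxa1, has no single-symbol probe set. Against control, S100a10 and S100a6 were called at 12 h, 1 d and 2 d, by 0.88 ± 0.19 and 6.68 ± 0.45 at 2 d, and at 4 d S100a6 alone (3.24 ± 0.45).

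Of 7 other partners, 3 were called higher and 0 lower at 2 d against 1 h. Plat, the tissue plasminogen activator that Anxa2 holds at the cell surface, rose by 2.92 ± 0.24 (adjusted p = 7.79e-09), and the urokinase receptor Plaur rose by 1.64 ± 0.36 (adjusted p = 0.00199). Plasminogen (Plg), its substrate and a hepatocyte product, averaged 13.07 at 2 d and 13.20 at 1 h and was not called, nor were Plau (-0.21), Pdcd6 (-0.15) and the Anxa1 receptor Fpr2 (0.15). Fpr2 was higher than control at 12 h (1.58 ± 0.32) and 1 d (1.22 ± 0.32). Sri, the sorcin that binds Anxa7, rose by 1.19 ± 0.17 at 2 d against 1 h. Its other probe set, on all arrays, was lower than control at 12 h (-0.80 ± 0.22) and 1 d (-0.70 ± 0.22) and was not called at 2 d (0.46 ± 0.22).

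Of 12 genes of plasma membrane repair, 6 were called higher and 1 lower at 2 d against 1 h, with a median difference of 0.31. Ahnak, a scaffold that binds Anxa2 and S100a10, rose by 3.01 ± 0.26 (8.55 at 2 d, 5.53 at 1 h, adjusted p = 1.81e-08), and the ferlin Myof by 1.27 ± 0.21. The calpain subunits Capn2 and Capns1 rose by 1.14 ± 0.17 and 0.70 ± 0.13, Snap23 by 0.66 and Chmp4b by 0.32. Trim72, known from muscle, was lower by a small amount (-0.33, at 4.57 and so under the median of all values). Dysf, Capn1, Pdcd6ip, Vps4a and Vps4b were not called.

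Of 9 genes that recognise or expose phosphatidylserine, 5 were called higher and 0 lower. The bridging protein Mfge8 rose by 1.88 ± 0.18 (adjusted p = 6.81e-08) and the receptor Axl by 1.75 ± 0.27, and its ligand Gas6 by 0.76. Stab1, a receptor of endothelial cells and macrophages, rose by 0.79 ± 0.11, and the scramblase Xkr8 by 0.54, while Mertk (-0.01), Tyro3 (-0.22), Timd4 (0.33) and Stab2 (0.21) were not called. Of 5 eicosanoid genes 2 were higher: Pla2g4a, a phospholipase A2, by 1.71 ± 0.20, and Alox5ap by 1.76 ± 0.30. Alox5 was lower (-0.35), and Ptgs2 and Ptges were not called. Of the 4 other annexins on the array, Anxa9 was called (0.67 ± 0.22, adjusted p = 0.0319) at a 2 d level of 4.76, while Anxa8, Anxa10 and Anxa13 were not.

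**Figure D5:**
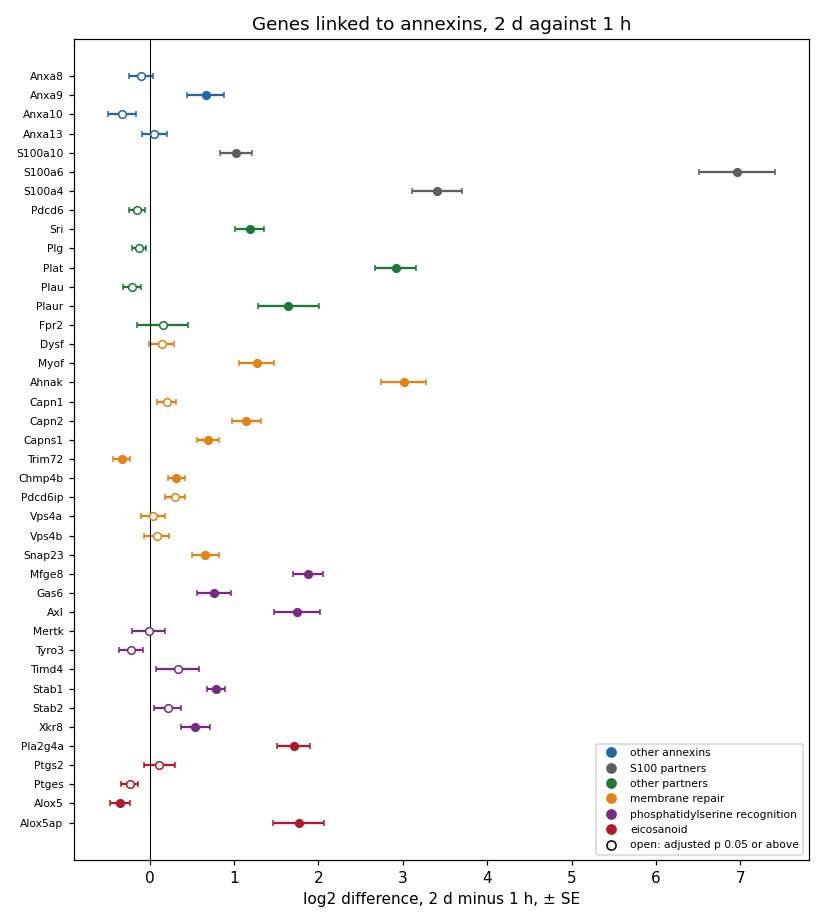
Log2 difference of 2 d minus 1 h (horizontal axis, ± SE of the fit) of the 40 genes linked to annexins (vertical axis, coloured by group), with filled points for adjusted p under 0.05. S100a6 lies farthest right at 6.96, followed by S100a4, Ahnak and Plat.

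Markers of other cell types moved at the same times. In bulk liver, more cells of a type and more RNA per cell cannot be told apart. Of all 18194 genes, 14.3% were called higher and 12.5% lower at 2 d against 1 h. At 1 d against 1 h these shares were 11.2% and 10.9%. Of 8 stellate cell and myofibroblast markers 6 were higher at 2 d against 1 h, and the mean over the 8 lay between 8.62 and 9.11 on the 2 d arrays and between 6.38 and 6.65 on the 1 h arrays. Of 7 macrophage and monocyte markers 4 were higher (Cd68, Lyz2, Itgam and Cd14) and 0 lower, with means of 7.56 to 8.15 at 2 d and 6.49 to 7.0 at 1 h. The markers not called included Adgre1 (0.50) and Clec4f (0.01). Of 5 neutrophil markers 1 was higher at 2 d and 3 at 1 d, with means of 5.72 to 6.62 at 2 d, 6.22 to 7.96 at 1 d and 4.83 to 5.56 at 1 h. Of 6 endothelial markers 3 were higher, with means of 7.49 to 8.08 at 2 d and 6.91 to 7.68 at 1 h. Of 5 cholangiocyte markers 0 were called at 2 d by limma (means of 4.45 to 4.59 at 2 d and 4.14 to 4.41 at 1 h), as were 0 of 4 mesothelial markers (3.81 to 4.24 at 2 d and 3.87 to 4.18 at 1 h). Of 6 hepatocyte markers 2 were lower (Ass1 and Cyp2e1), as were 2 of 5 T and B cell markers. The part of these cells in the annexin results was not tested.

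The course of each annexin measured on all arrays was set beside those of 5975 other genes by the mean absolute difference of their log2 differences from control over the 9 times, as a description. The arrays and the control group are shared by all these courses. Nearest to Anxa2 were Mcm6, a subunit of the DNA replication helicase (0.474), Fstl1 (0.554) and Ly6d (0.607). This measure grows with the size of the changes, so these values cannot be set beside those of annexins that changed less. Mcm6 stood 4.15 above control at 2 d and 2.78 at 4 d, against 5.08 and 2.17 for Anxa2. Nearest to Anxa4 were Reep5 (0.0962), Calu (0.105) and Tusc3 (0.112). The nearest to Anxa7 (1416138_at) was Gde1 (0.0988), at 0.46 at 1 d and -0.72 at 16 d, followed by Ppan (0.151) and B4galnt1 (0.169). Nearest to Anxa6 were Anapc5 (0.0806), at -0.42 at 12 h and 0.42 at 2 d, Cd151 (0.0865) and Gucy1a1 (0.0903).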

How the data were processed

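Total RNA of mouse liver was hybridised to 49 Affymetrix mouse expression arrays. Per the submitters' processing notes, the authors made the values with oligo 1.52.0 and RMA, and the deposited table holds 1 log2 value per probe set and array. No source used here says whether all arrays were normalized together. All 45101 probe sets have values on 25 arrays, and 8137 of them on all 49. Arrays have no read depth, and their number limits the precision.

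Values were used as deposited, without filter. Linear models with 1 mean per group were fitted in R 4.3.3 by limma 3.58.1 with its default moderation, separately to the 49 arrays and to the 25 complete ones, with Benjamini-Hochberg adjustment over all probe sets. Symbols came from the platform annotation: 34958 of the 45101 probe sets have 1 symbol, 932 several, and 9211 are not listed. Exact permutation tests used scipy 1.17.1. The fit was tested on simulated data. The members and lists were chosen with earlier results of these data known. The rule named all members with every probe set, the called members of the linked lists, and the 3 genes nearest in course to each member. Alternatives were array weights, trend and robust estimation, quantile normalization, centring on the array median or on ribosomal protein genes, dim probe sets left out, 1 probe set per gene, the replicate number as a block, the compared groups alone, and arrays left out. Anxa11 had been planned in the order of changes, which leaves 6 neighbours where 7 had been foreseen.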

Additional observations from a re-analysis of the deposited data

Results flagged for a closer look

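Over 110 groups of a probe set that were examined for a single array far from the rest, 5 had one by Dixon's test at 95%. That is near 1 in 20, the nominal rate of such a test, but the groups share arrays and genes and are not independent. The first of the 5 is Anxa2 (1419091_a_at) on 6 h replicate 1, at 6.08 where the other 6 h arrays lay between 6.95 and 7.02. The same probe set read 8.28 on 8 d replicate 3, where the others lay between 7.25 and 7.55, and its 8 d call against control was lost without that array. The other 3 were on 16 d replicate 4, 1 of the 3 arrays with a narrow spread of values. Anxa4 read 8.15 there by 1421223_a_at (others 8.73 to 8.85) and 6.69 by 1424176_a_at (others 7.71 to 7.96). Anxa7 (1416137_at) read 7.30 there (others 8.01 to 8.30). No explanation of these values was tested.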

How the results depend on the processing

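No result reversed. Outside the leave-one-out fits, 1837 single values were counted as unchanged, 67 passed the threshold newly and 21 no longer did. When single arrays were left out, 2111 were counted as unchanged, 9 passed newly and 65 no longer did. The 2111 include differences of changes between probe sets of 1 gene at 2 d against 1 h. Those were counted as unchanged when they moved by less than the SD over arrays. Sign changes of values called in neither setting were not counted as reversals. Percentages in brackets below are the share of all probe sets called in the same fit. With array weights the called members numbered 4 at 6 d (15.1%) and 3 at 16 d (11.6%) against control. They numbered 2 at 12 h against 6 h (16.3%), 2 at 6 d against 4 d (8.84%), and 3 at 16 d against 1 h on the complete arrays (5.87%). Quantile normalization gave 2 at 16 d against control (8.7%), 2 at 12 h against 6 h (12.9%) and 2 at 6 d against 4 d (3.44%). Centring on the array median gave 4 at 2 d against control (53.7%). Centring on ribosomal protein genes gave 4 at 2 d and 2 at 16 d against control, 2 at 12 h against 6 h and 14 at 2 d against 1 h. It moved the median of all probe sets by -0.13 at 12 h and -0.27 at 1 d against control. Leaving out dim probe sets gave 2 at 12 h against 6 h (16.3%). Leaving out the 3 narrow arrays also gave 2 there (13.1%), and 2 at 6 d against 4 d (3.34%). The compared groups alone gave 2 at 16 d against control (3.04%), 2 at 6 d against 4 d (5.44%) and 1 at 2 d against 1 d (8.66%). On the complete arrays they gave 3 at 2 d against 1 d (4.31%) and 3 at 1 d against 12 h (0.231%). With 1 probe set per gene, which tests 7 members only, 3 were called at 12 h (18.6%) and 5 at 2 d (28.1%) against 1 h. At 1 d against 12 h 3 were called (1.77%). Of the 16 pairs of probe sets, 4 differed at 2 d against 1 h and 0 at 16 d, 3 of the 4 being pairs with a probe set near the floor. The cause of these changes was not tested, apart from the smaller numbers tested or fitted. Leaving out single arrays gave, against control, 0 to 0 at 1 h and 6 h, 2 to 3 at 12 h, 3 to 3 at 1 d, 2 to 2 at 2 d, 2 to 3 at 4 d, and 1 to 3 at 6 d, 8 d and 16 d. Against 1 h it gave 3 to 5 at 12 h, 9 to 10 at 1 d, 8 to 8 at 2 d and 0 to 1 at 16 d. Between neighbouring times it gave 0 to 0 at 6 h against 1 h, 8 d against 6 d and 16 d against 8 d, 1 to 2 at 12 h against 6 h, 2 to 2 at 1 d against 12 h and 4 d against 2 d, 2 to 3 at 2 d against 1 d, and 0 to 1 at 6 d against 4 d. On the complete arrays it gave 3 to 6 at 1 d against 12 h, 3 to 5 at 2 d against 1 d and 9 to 10 at 16 d against 2 d. The linked genes called at 2 d numbered 18 to 22 against 1 h and 7 to 9 against control.

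The labels do not say that a replicate number marks a shared batch, and the numbers were not taken to pair the arrays. The median correlation of deviations was 0.067 over 216 pairs of arrays with the same number (lowest -0.557) and -0.011 over 864 other pairs. As a hint from the data, not the design, 18 of 49 arrays correlated best with an array of their own number, where 9.8 are expected if the numbers share nothing. With the replicate number as a block, the difference of Anxa2 at 2 d against control was still 5.08 and 2 members were called there, and Anxa3 was newly called at 1 d against 12 h (1.20, adjusted p = 0.0414). No count of called members moved by more than 1.5 times.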
